A study of Acipenser schrenckii with 2 samples.

Results

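The probes described here read 15 miRNA families known mainly from the nervous system, endocrine cells and the pancreas, on 2 microarrays of Amur sturgeon (Acipenser schrenckii) gonad. One array carried RNA of a male gonad and the other RNA of a female gonad, each from 1 fish of 11 months in the condition that the labels call normal and at a stage that they place early in sex differentiation. The members were chosen by name: every miRNA probe of miR-7, miR-9, miR-124, miR-128, miR-132, miR-135, miR-137, miR-138, miR-153, miR-212, miR-216, miR-217, miR-218, miR-219 or miR-375, with any letter, copy or arm. They number 61 of the 663 miRNA probes of the chip, each spotted 5 times. The probes were designed on miRNAs of other fishes, and the prefixes dre (zebrafish), ccr (common carp), ipu (channel catfish), ola (medaka), fru (fugu) and pol (olive flounder) name the species of the design, so a signal is not evidence of exactly that sequence in the sturgeon.

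A miRNA is a short RNA that guides a silencing complex to mRNAs, mainly through its seed, bases 2 to 8 from its 5′ end, and miRNAs that share a seed are grouped as a family with overlapping targets. In vertebrates miR-124 and miR-9 are abundant in neurons and neural progenitors, miR-132 and miR-212 are induced by neuronal activity, and miR-128, miR-137, miR-138 and miR-153 are enriched in brain. miR-218 lies within Slit genes and marks motor neurons, and miR-219 drives the maturation of oligodendrocytes, the myelin-forming glia. miR-7 and miR-375 are known from pituitary and pancreatic endocrine cells, and miR-216 and miR-217 from the acinar cells of the exocrine pancreas. miR-135 is known in mammals as a regulator of the Wnt pathway gene APC.

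The 61 targets, of 19 to 24 bases, were all different and carried 25 seeds. The following 9 are those of the probe with the highest mean level over both arrays, in each family with a probe detected in both gonads, printed 5′ to 3′ with the seed in capitals, since each carries a different seed.
ola-miR-7: uGGAAGACuagugauuuuguugug
ola-miR-128: uCACAGUGaaccggucucuu
ola-miR-135b: uAUGGCUUuuuauuccuac
ccr-miR-138: aGCUGGUGuugugaaucaggc
dre-miR-153a: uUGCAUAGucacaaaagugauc
dre-miR-216a: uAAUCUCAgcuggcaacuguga
dre-miR-217: uACUGCAUcaggaacugauugg
ccr-miR-218b: uUGUGCUUgaucuaaccaugc
ipu-miR-375: uUUGUUCGuucggcucgcguu

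The targets of the other 6 families, at or near background, are given by their brightest detected probe and, for miR-212, which had none, by its zebrafish probe, again with the seed in capitals. miR-212 and miR-132 share the seed AACAGUC, the only seed held by probes of both families. The target of ola-miR-137 starts 3 bases further in than those of the other 3 miR-137 probes, which carry the seed UAUUGCU. Its capitals are therefore not the seed of those probes.
dre-miR-9-5p: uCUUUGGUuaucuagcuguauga
ipu-miR-124a: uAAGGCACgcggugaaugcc
ola-miR-132: uAACAGUCuacagccaugg
dre-miR-212: uAACAGUCuacagucauggcu
ola-miR-137: uUGCUUGAgaauacgcguagcu
pol-miR-219-3p: gGAGUUGUggauggacaucacg

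Spot intensities are in scanner units and include background, which was read from 361 empty spots with a median of 80.5 on the male array and 86.7 on the female array. A probe was called detected where at least 3 of its 5 spots exceeded the 95th percentile of those empty spots, 113 on the male array and 103 on the female array. The limit thus stood 32.3 above the empty median on the male array and 16.8 on the female array, and a dim probe needs less signal to be called detected in the female. Normalized levels are on the log2 scale, after background correction and quantile normalization over all miRNA probes, with ± the SD over 5 repeat spots of 1 array, which is technical error only. With 1 fish and 1 array per sex no sex was replicated, so the gonads are compared by values alone and no p-value is given. Probes of different sequence bind with different strength, so brightness is not compared between miRNAs as an amount of RNA.

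As a check of the tissue label, the gonad miRNA miR-202 had 1 of its 3 probes (33.3%) detected on both arrays. This was ipu-miR-202, with 553 in the male and 113 in the female. Of the miR-34b, miR-34c, miR-449 and miR-430 probes of germ cells and early embryos, 7 of 13 were detected in the male (53.8%, chip 64.9%). In the female 5 of 13 were (38.5%, chip 71.8%). As whole lists, these gonad and germ cell probes were thus detected less often than the chip. However, dre-miR-34b, ipu-miR-34b and hhi-miR-449 were detected in both gonads, and dre-miR-34c in the male only. Apart from ipu-miR-34c, every germ cell probe not detected in the male was a miR-430 probe. ipu-miR-34b had a median of 4287 in the male and 859 in the female, and hhi-miR-449 had 1263 and 494. Markers of other tissues were detected as well: 15 and 20 of 22 striated muscle probes (68.2% and 90.9%) in male and female. Of 8 kidney and gut probes 5 and 6 were (62.5% and 75%), against 64.9% and 71.8% of all miRNA probes of the chip. Each gonad also gave 21 of 22 epithelium probes, 14 of 15 smooth muscle and mesenchyme probes and all 6 erythrocyte probes. These are whole gonads, so fewer cells of a type and less RNA per cell cannot be told apart.

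The families fell into those detected in both gonads and those at or near background. In the male gonad 27 of the 61 probes were detected (44.3%), against 64.9% of all 663 miRNA probes of the chip. In the female gonad 33 were detected (54.1%), against 71.8% of all probes. On both arrays 25 probes were detected (41.0%, chip 62.7%) and on neither 26 (42.6%, chip 26.1%). Every member of miR-128, miR-138, miR-216, miR-217, miR-218 and miR-375 was detected in both gonads, 18 probes in all, and miR-7, miR-135 and miR-153 were detected in part. No probe of miR-9, miR-124, miR-132, miR-137, miR-212 or miR-219 was detected in the male gonad, 28 probes in all, and 8 of these 28 passed the lower limit of the female array. With the 99th percentile of the empty spots as the limit, all detected probes of miR-7, miR-128, miR-218 and miR-375 were still detected in both gonads. No probe of miR-135, miR-138, miR-153, miR-216 or miR-217 was then detected in the female gonad. The male gonad kept 2 probes of miR-217, 2 of miR-216, 1 of miR-135 and 1 of miR-153, but none of miR-138. That limit was higher on the female array than on the male array, so the losses in the female depend in part on it. dre-miR-216b, dre-miR-9-5p and ola-miR-132 each had 3 female spots above the main limit. They were lost in the female when 4 of 5 spots were asked for, which left no miR-9 or miR-132 probe detected.

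Among the neuronal families, miR-128 stood far above the detection limit in both gonads. ola-miR-128 read 2678.8, 2783.0, 2961.3, 3004.9 and 3140.4 in the male gonad, and 1831.3, 1873.4, 1928.5, 1989.2 and 2005.8 in the female gonad. Every male spot was thus brighter than every female spot before the arrays were set level. After normalization the levels were 11.24 ± 0.09 in the male and 11.13 ± 0.06 in the female, a difference of 0.11 with overlapping spots. ccr-miR-128 and dre-miR-128, whose targets are 1 and 2 bases longer, differed by 0.15 and 0.06. All 3 probes of miR-128, which restrains neuronal excitability in the mouse, lay above 0, and their spots overlapped between the gonads.

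miR-218 also stood well above the limit, and all 5 of its probes were detected in both gonads. ccr-miR-218b read 704.8, 720.3, 776.7, 783.4 and 970.5 in the male gonad, and 500.9, 609.9, 626.2, 626.7 and 719.1 in the female gonad. The groups of spots overlapped. Its normalized level was 9.35 ± 0.19 in the male and 9.47 ± 0.19 in the female, a difference of -0.12. The 5 probes ranged from -0.19 for dre-miR-218a to 0.24 for ola-miR-218a, whose target lacks only the last base of that of dre-miR-218a. Of the 5 differences 3 were below 0 and 2 above, and the family median of -0.12 became 0.36 without normalization and 0.61 with scaling to the P control probes. These settings and 75th percentile scaling differ only by a constant per array. Relative to the median of all detected probes they therefore give the same family median by construction, here -0.00. Wherever alternatives are counted relative to that median, these settings amount to a single reading.

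miR-138 and miR-153, both brain-enriched, were dim but detected in both gonads. ccr-miR-138 read 162.0, 166.2, 177.2, 180.3 and 183.1 in the male gonad, and 155.7, 157.1, 169.5, 170.6 and 174.3 in the female gonad. The spots overlap on the scanner's scale, and the order of the gonads turns with normalization. The level was 7.09 ± 0.09 in the male against 7.59 ± 0.08 in the female, a difference of -0.50, and dre-miR-138 and ipu-miR-138 differed by -0.31 and -0.35. The median of the 3 probes was -0.35, but 0.08 without normalization and 0.32 with scaling to the P control probes. Relative to the median of all detected probes it was below 0 in all 15 alternatives (-0.64 to -0.11), not all of them separate readings. dre-miR-153a read 194.8, 203.6, 220.8, 227.9 and 237.5 in the male gonad, and 168.4, 172.3, 181.0, 183.7 and 185.8 in the female gonad. Here the male spots were all above the female ones before normalization. After it the levels were 7.38 ± 0.13 and 7.68 ± 0.07 in male and female, a difference of -0.30. This difference was above 0 in 3 of 15 alternatives and reached 0.53 with scaling to the P control probes. Relative to the median of all detected probes it was above 0 in 1 of the 15 (-0.39 to 0.01).

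miR-124, which promotes neuronal differentiation, read near the detection limits of both arrays with 3 of its 7 probes. ipu-miR-124a read 103.1, 104.1, 110.1, 112.5 and 114.0 in the male gonad, and 100.6, 105.3, 111.7, 115.2 and 115.8 in the female gonad. These readings are nearly the same on both arrays, yet 1 male spot and 4 female spots passed their limits. dre-miR-124 and ola-miR-124-3p, which read the same miRNA with 2 bases and 1 base more, had 1 male and 4 female spots above the limits each. Their normalized differences were 0.03 and -0.09, and that of ipu-miR-124a was -0.05. The other 4 miR-124 probes, of the opposite arm or of its complement, were detected on neither array.

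miR-9 gave a similar picture. dre-miR-9-5p, whose target is shared by 7 miRNA entries in the chip's annotation, read 108.0, 108.6, 110.0, 122.1 and 127.2 in the male gonad, and 97.3, 100.9, 110.2, 112.7 and 129.8 in the female gonad. The medians on the arrays were practically equal, and the difference after normalization was 0.02. The other 5 miR-9 probes, among them ccr-miR-9-3p, whose target is that of dre-miR-9-5p without its last base, were detected on neither array. The carp and zebrafish designs give the arms of miR-9 opposite names: ccr-miR-9-5p holds the target of dre-miR-9-3p with 1 more base.

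For miR-132, ola-miR-132 read 92.8, 94.1, 97.6, 103.6 and 107.4 in the male gonad, and 88.7, 91.1, 107.8, 111.6 and 121.5 in the female gonad, with a normalized difference of -0.04. The other 4 miR-132 probes and both miR-212 probes were detected in neither gonad. ccr-miR-132b is complementary to the target of dre-miR-132-3p over 20 bases with no mismatch, and ccr-miR-124a to that of pol-miR-124-5p over 20 bases.

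miR-137, a regulator of neuronal maturation, had 2 of its 4 probes detected in the female gonad. ola-miR-137 read 87.4, 93.4, 95.04, 95.5 and 104.2 in the male gonad, and 102.3, 120.6, 122.2, 127.5 and 137.6 in the female gonad. Male and female spots overlapped only at their ends before normalization and were separate after it. The level was 6.34 ± 0.11 in the male, not detected, and 6.82 ± 0.18 in the female, a difference of -0.48, or at least 1.19-fold more in the female gonad. Such a bound sets the measured level against the lowest detected level of the other array or the level of the probe itself there, whichever is higher. ccr-miR-137 differed by -0.29, at least 1.05-fold, and the median of both probes was below 0 in all 15 alternatives to the settings used here. For ola-miR-137 the difference was -0.21 with scaling to the P control probes and -2.14 with plain subtraction. With plain subtraction and with 75th percentile scaling, which put it at the size limit, it was called higher in the female gonad. That scaling moved other probes near background by a similar amount, dre-miR-9-5p from 0.02 to -0.51 and ipu-miR-124a from -0.05 to -0.60. The call with it is therefore not particular to ola-miR-137. fru-miR-137, whose target holds 19 bases of that of ola-miR-137 without a mismatch, differed by 0.03 and was detected on neither array.

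The oligodendrocyte miRNA miR-219 was not detected in the male gonad with any of its 4 probes. pol-miR-219-3p read 93.2, 94.4, 96.1, 96.4 and 99.91 in the male gonad, and 91.9, 105.5, 108.9, 111.8 and 212.6 in the female gonad, where it alone of the 4 was detected. One female spot stood far above the other 4, and the level of 6.80 ± 0.53 carries that spread. The twin probe ipu-miR-219b, with 1 more base, was not detected on either array. Both carry the seed GAGUUGU, of the 3p arm by the name of pol-miR-219-3p. dre-miR-219, with the seed GAUUGUC, had medians of 101.13 in the male and 102.42 in the female and was detected in neither.

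The detections on the female array alone also depend on the limit. The 8 probes had median intensities between 95.04 and 110.08 in the male and between 104.6 and 122.17 in the female. With the wider margin of the male array applied to both arrays, a limit of 113 in the male and 119 in the female, ola-miR-137 was the only 1 of the 8 still detected. With the empty spots of the first 2 chip rows left out, which had a median of 95.3 on the male array against 79.0 elsewhere, the male limit was 108 and dre-miR-9-5p and ipu-miR-124a passed it too, as did dre-miR-135b, which is not among the 8. Both limits were chosen after the data were seen.

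Other miRNAs of the nervous system and sensory cells, outside the 15 families, were detected about as often as the chip as a whole or more often. Of 29 probes for miR-129, miR-338, miR-139, miR-204, miR-184, miR-183, miR-96 and miR-182, 20 were detected in the male gonad (69.0%, chip 64.9%) and 25 in the female gonad (86.2%, chip 71.8%), and none differed by the size rule. Their median difference was -0.36, against -0.06 for the 490 probes of the chip detected on at least one array. miR-338, a partner of miR-219 in oligodendrocytes, reached 3267 in the male and 2863 in the female with its brightest probe, ola-miR-338-3p. dre-miR-338 had 1623 in the male and 795 in the female. ola-miR-338-5p had 100.5 and 108 and was not detected in the male. miR-129, which is largely neuronal, had 1 of 5 probes detected in the male and 2 in the female, and dre-miR-129-5p, detected in both, had levels of 6.81 and 6.76 in male and female.

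The comparison of the gonads covered the 35 neural and endocrine probes detected on at least one array. To be called higher in one gonad a probe had to be detected there, with a log2 difference of 1 or more and all 5 spots clear of those of the other gonad. By that rule 0 of the 35 were higher in the male gonad, where the chip as a whole had 4.69% of its 490 detected probes, and 1 was higher in the female gonad (chip 1.63%). The median difference of the 35 was -0.04 (range -1.05 to 0.85) and that of the 490 was -0.06, with 16 of the 35 above 0 (chip 43.1%) and 19 below. Probes of 1 family are mostly near-identical and are not independent readings.

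The endocrine miRNAs miR-375 and miR-7 had 6 detected probes, all with a difference below 0 and with a median of -0.54, while fru-miR-7 at -0.04 was not below the chip median of -0.06. ipu-miR-375 read 1517.0, 1674.2, 1755.3, 1842.0 and 1909.9 in the male gonad, and 1481.4, 1600.0, 1650.5, 1694.1 and 1754.3 in the female gonad. On the scanner's scale the male spots reached higher, although the 2 ranges overlap. After normalization the level was 10.39 ± 0.13 in the male against 10.94 ± 0.09 in the female, a difference of -0.55 (1.46-fold higher in the female) with separate spots. dre-miR-375, with 1 more base, gave -0.53. This order turned with the scaling: the family median was -0.54, 0.11 without normalization and 0.36 with scaling to the P control probes. Relative to the median of all detected probes it was below 0 in all 15 alternatives (-0.53 to -0.25), not all of them separate readings.

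ola-miR-7 was the 1 probe past the rule, and its call rested on 1 spot. It read 355.2, 701.1, 721.6, 810.4 and 827.4 in the male gonad, and 780.2, 806.7, 842.3, 924.7 and 995.4 in the female gonad. The lowest male spot stood far below the other 4. The level was 9.08 ± 0.52 in the male against 10.12 ± 0.15 in the female, a difference of -1.05 (2.07-fold higher in the female). Without spots over 0.5 from the median of their probe the difference was -0.81, with the median of spots -0.87, and with the authors' deposited table -0.89, none of them past the rule.

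The miR-7 probes also show how far near-identical targets can part. The following sequences, with the seed in capitals, are the other probes of the same miRNA and, last, a probe of the variant miR-7b.
ccr-miR-7a: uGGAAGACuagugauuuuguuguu
dre-miR-7a: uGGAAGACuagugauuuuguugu
fru-miR-7: uGGAAGACuagugauuuuguu
dre-miR-7b: uGGAAGACuugugauuuuguu
The target of dre-miR-7a holds that of fru-miR-7 with 2 more bases, and that of ola-miR-7 adds 1 further base. ccr-miR-7a differs from ola-miR-7 by U24G, the first letter being that of ccr-miR-7a and positions counted from 1 at the 5′ end. fru-miR-7 had levels of 9.05 ± 0.17 in the male and 9.09 ± 0.10 in the female, a difference of -0.04. dre-miR-7a had 9.10 ± 0.08 in the male and 9.52 ± 0.10 in the female (-0.43), and ccr-miR-7a 9.26 ± 0.15 in the male and 9.80 ± 0.14 in the female (-0.54). fru-miR-7 read 587.1, 595.3, 624.7, 664.8 and 781.4 in the male gonad, and 437.3, 455.9, 476.4, 492.0 and 518.5 in the female gonad. All male spots of fru-miR-7 lay above its female spots before normalization, whereas 3 of the 5 male spots of ola-miR-7 lay below all its female spots. The median of the 4 detected miR-7 probes, -0.48, was 0.05 without normalization and 0.29 with scaling to the P control probes. Relative to the median of all detected probes it was below 0 in all 15 alternatives (-0.66 to -0.32), not all of them separate readings.

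miR-7b differs from miR-7a by A10U, a single base outside the seed, and its probes stayed at the floor. dre-miR-7b had a median of 84.7 in the male and 96.3 in the female, and ccr-miR-7b 99.7 and 87.2. Neither was detected, while the other 4 miR-7 probes had medians between 625 and 722 in the male and between 476 and 842 in the female. On both arrays a single ccr-miR-7b spot stood out, at 201.52 in the male and 179 in the female.

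Among miR-153 probes, dre-miR-153a was detected in both gonads, while dre-miR-153c, which differs from it by G17A, and dre-miR-153b, by G17A and U21G, were detected in neither. dre-miR-153c had a median of 102 in the male and 97.9 in the female, with 1 male spot at 295. All 3 share the seed UGCAUAG.

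miR-135 probes read more brightly in the male gonad, at low intensity. ola-miR-135b read 309.5, 331.6, 356.1, 399.6 and 401.1 in the male gonad, and 159.1, 160.3, 162.4, 182.5 and 193.6 in the female gonad. Every male spot exceeded every female spot before and after normalization. The level was 8.12 ± 0.17 in the male against 7.64 ± 0.14 in the female, a difference of 0.48 or 1.39-fold. ccr-miR-135c, dre-miR-135c and ola-miR-135a, 3 lengths of one target, differed by 0.61, 0.57 and 0.62. The last 2 were detected in the male gonad only, at least 1.44-fold and 1.54-fold higher there.

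The remaining miR-135 probes were detected in neither gonad, and these sequences, with the seed in capitals, show how little they differ from a detected relative.
ccr-miR-135c: uAUGGCUUucuauuccuauguga
dre-miR-135a: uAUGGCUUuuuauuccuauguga
dre-miR-135b: uAUGGCUUuuuauuccuaucug
dre-miR-135a differs from ccr-miR-135c by C10U, counted from the 5′ end with the base of ccr-miR-135c first, and had medians of 89.4 in the male and 97.0 in the female. ccr-miR-135c had 173 in the male and 106 in the female. dre-miR-135b had a median of 112 in the male, just under the limit of 113, and 96.9 in the female. It differed by 0.30 after normalization, with separate spots. ola-miR-135b differs from ccr-miR-135c by C10U and U19C and from dre-miR-135a by U19C, its last base, and was detected in both gonads. In all 15 alternatives the median of the 4 detected miR-135 probes lay above 0, from 0.24 with 75th percentile scaling to 1.60 with plain background subtraction, against 0.59 here.

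The pancreas miRNAs miR-217 and miR-216 were likewise brighter in the male gonad, all 5 probes lying above 0 with a median of 0.52. dre-miR-217 read 348.3, 362.1, 390.8, 401.4 and 405.9 in the male gonad, and 140.6, 161.2, 164.6, 176.2 and 176.4 in the female gonad. Every male spot was above every female spot before and after normalization. The level was 8.20 ± 0.10 in the male against 7.53 ± 0.15 in the female, a difference of 0.67 (1.59-fold). ccr-miR-217, with 1 more base, gave 7.98 ± 0.10 in the male against 7.13 ± 0.17 in the female, a difference of 0.85 (1.8-fold). Neither reached 1, but ccr-miR-217 passed the rule with cyclic loess, with no normalization and with scaling to the P control probes. It also passed with plain subtraction and with a background offset of 16. In the authors' deposited table, with 50 added to each value, it reached the size limit, but that table holds no spots to compare.

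Background subtraction bears on these dim probes. Above the empty-spot median, dre-miR-217 had 310.3 in the male and 77.8 in the female, and ccr-miR-217 had 243 and 45.2. The authors' deposited table lists 198 and 94.5 for dre-miR-217, and 164 and 53.4 for ccr-miR-217, in male and female. With 50 added to each value, which shrinks differences of dim probes, dre-miR-217 differed by 0.78 on the log2 scale. The median of both probes lay above 0 in all 15 alternatives, from 0.70 with no background correction to 1.57 with scaling to the P control probes. That scaling moved the median of all detected probes to 0.61. Relative to the median of all detected probes, that of both miR-217 probes ranged from 0.76 to 1.27 and was 0.96 with P control scaling.

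dre-miR-216a read 268.2, 279.2, 293.5, 294.4 and 318.4 in the male gonad, and 132.3, 145.2, 154.0, 171.2 and 233.4 in the female gonad. The male spots all lay above the female ones before normalization, and after it they overlapped. The level was 7.77 ± 0.10 in the male against 7.55 ± 0.34 in the female, a difference of 0.22. fru-miR-216a, which differs from dre-miR-216a by U1A in the first base, gave 0.52, and dre-miR-216b, with the changes A8U and U11A and therefore another seed, gave 0.30. The family median was above 0 in all 15 alternatives (0.24 to 1.12), although with 75th percentile scaling 1 of the 3 probes fell below 0. Relative to the median of all detected probes the family median ranged from 0.29 to 0.88.

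Markers of some other tissues also differed between the gonads. No probe of striated muscle, smooth muscle and mesenchyme, erythrocytes, endothelium or epithelium passed the size rule in either direction. By the rule ipu-miR-202 (1.90) and 3 of the 13 germ cell probes were higher in the male, and 0 probes of those lists were higher in the female. The myeloid miRNA miR-223 was mixed: dre-miR-223 was higher in the male by the rule, at 1.30 with a female SD of 0.95. ola-miR-223 differed by -0.19. The hepatocyte miRNA miR-122 had 2 of 4 probes detected in both gonads, both higher in the male by the rule, with a summed signal above background of 478 in the male and 46.2 in the female. The summed signal of the kidney and gut miRNAs miR-192 and miR-194 went the other way, 3625 in the male and 5344 in the female. Of their 8 probes 4 were higher in the female by the rule. The sums are from before normalization, when probes detected on both arrays were in the median 1.36-fold brighter in the male. The part of liver, kidney or gut in the values of miR-216, miR-217, miR-375 or miR-7 was not tested.

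Near-identical probes gave a measure of how well a difference repeats on these arrays. Among the neural and endocrine probes detected in both gonads, 19 pairs had one target held within the other. Their differences between the gonads parted by a median of 0.18 and by at most 1.01, the pair fru-miR-7 and ola-miR-7, and had the same sign in 15 of 19 pairs. The pairs share probes, so they are not independent. The target of 1 member, ipu-miR-219a, lay within 2 mismatches of a probe outside the 15 families, a probe named novel_52, and no other member had such a relative. The G+C share of the targets was 43.5% in the median (31.6% to 56.5%) for the 25 probes detected on both arrays and 36.4% (30.4% to 63.6%) for the 26 detected on neither.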

How the data were processed

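The arrays were read at the level of the scanner: median Cy3 intensity per spot, per the file headers, not corrected for background. Small RNAs were size-selected, poly(A)-tailed and tagged, per the labels' protocols. Which program read the images was not given in the sources used here. A table the authors deposited, of linear intensity with 1 value per probe, has an unstated normalization and served as an alternative. For it 50 was added to each value before log2, and the size rule was applied without the condition on spots. Of 3968 spots, 3315 belonged to 663 miRNA probes.

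In R 4.3.3 with limma 3.58.1, normexp correction with offset 50 over all spots, the mean of log2 over 5 spots and quantile normalization over miRNA probes were applied. Quantile normalization hides a global difference: before it, probes detected on both arrays had a median difference of 0.45 (log2, male minus female). The offset shrinks differences of dim probes. The lower bounds use the lowest detected level, 6.57 in the male and 6.42 in the female, or the dim level of the probe itself where higher. The number of arrays limits the precision. The size rule was run on simulated data with known changes. Sequences are the chip's targets, handled in Python 3.11.15.

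Members, lists and alternatives were chosen with earlier results of these data known. All 5 spots are given for each family's brightest detected probe (by mean level over both arrays) and for probes past the size rule, and level and difference for probes whose difference parts from that of the brightest by over 0.5; further probes were named after their values were seen. Genome positions were not analysed here.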

Additional observations from a re-analysis of the deposited data

How the results depend on the processing

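The number of arrays, 1 per sex, and signal near the empty spots limit these results. Of 86 alternative values of the 5 summary results, 68 stayed within the limits set for a change and 18 moved. These limits were wide, and male detection counts of 20 and 38 passed as unchanged from 27. Other detection limits could not move the call of ola-miR-7, which lay far above each of them. In the male gonad 27 probes were detected, or 20 with the 99th and 38 with the 90th percentile of the empty spots. Of all 663 miRNA probes 430 were detected there, or 367 with the 99th and 509 with the 90th percentile. In the female gonad 33 neural and endocrine probes were detected, or 14 with the 99th percentile and 42 with the 90th. The count was 24 with an equal margin on both arrays (chosen after seeing the data) and 30 to 33 with 1 repeat spot left out. Of all 663 miRNA probes 476 were detected in the female, or 316 with the 99th percentile, 546 with the 90th and 390 with the equal margin. The count of probes higher in the male gonad, 0 here, was 1 with cyclic loess, offset 16 or the authors' table. It was 4 with plain subtraction or a size limit of 0.58, 5 with no normalization and 8 with scaling to the P control probes. The 490 detected probes of the chip had 23 here, 30 with cyclic loess, 27 with offset 16 and 22 with the authors' table. They had 38 with plain subtraction, 50 with a size limit of 0.58, 74 with no normalization and 109 with scaling to the P control probes. The count of neural and endocrine probes higher in the female gonad, 1 here (ola-miR-7), was 1 with 75th percentile scaling but for ola-miR-137. It was 3 with plain subtraction (ccr-miR-137, ola-miR-137 and ola-miR-7). It was 0 with cyclic loess, no normalization, P control scaling, the median of spots, stray spots left out or the authors' table. With 1 repeat spot left out it was 0 to 1. The chip had 8 here and with 75th percentile scaling, 33 with plain subtraction and 4 with cyclic loess. It had 0 with no normalization or P control scaling, 7 with the median of spots or the authors' table, and 6 with stray spots left out. The median difference of the detected neural and endocrine probes, -0.04, was 0.33 with no normalization and 0.57 with P control scaling. These settings move the median of all detected probes to 0.37 and 0.61. With 75th percentile scaling the chip median was -0.19 and the median of the neural and endocrine probes -0.23. With 1 repeat spot left out the median of the neural and endocrine probes was -0.10 to 0.01. ola-miR-7 lost its call in 8 of its 15 alternatives and kept its sign in all of them. The cause of these changes was not tested. No paired analysis was possible because each sex has 1 array.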
